A study of Mus musculus with 6 samples.

Results

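MHC and antigen processing genes were followed as 10 members, 6 for class I presentation and peptide loading (H2-K1, H2-D1, B2m, Tap1, Tap2 and Tapbp) and 4 for class II presentation (H2-Aa, H2-Ab1, Cd74 and Ciita). They were chosen by gene name, and every non-control probe carrying 1 of these names was taken, which gave 15 of the 55681 probes and 10 of the 34298 gene names on the array. The class I members held 8 probes and the class II members 7. Each value is the authors' deposited log2 intensity after background correction and quantile normalization, averaged over the spots of a probe. A probe is said to be at background where the scanner software flagged it as well above background on none of the arrays concerned.

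The arrays compared organoids, which are epithelial cells grown as 3-dimensional structures in Matrigel, from the esophagus (squamous) and the stomach (columnar) of the same 3 mice, numbered 1, 2 and 4. There were 3 esophagus and 3 stomach arrays, 1 per mouse and tissue, all labelled Control and at passage 0. Harvest was on day 8 of culture, and on day 7 for the mouse 4 stomach organoids. The labels give no strain, sex or age for these mice. The methods list wild-type C57BL/6 females and an age range at euthanasia, without tying either to the arrays. Both media held EGF, noggin, FGF-10, B27, N2 and inhibitors of the TGF-β receptor kinase and of ROCK. Esophagus medium also held forskolin, whereas stomach medium held WNT3A and R-spondin1 conditioned medium and gastrin. Esophagus cells were seeded after enzyme digestion and stomach cells as corpus glands, so tissue, medium and isolation cannot be told apart in any comparison below.

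MHC class I molecules are found on nearly all nucleated cells. A heavy chain pairs with β2-microglobulin in the endoplasmic reticulum, takes up a peptide that the TAP transporter brought in from the cytosol, and shows it to CD8 T cells. Class II molecules pair an alpha with a beta chain, travel with the invariant chain to endosomes and show peptides to CD4 T cells. They are typical of antigen-presenting cells, and epithelia can also make them, often after interferon-gamma, through the transactivator CIITA.

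The tissues could be told by their epithelial markers. By the brightest probe of each gene, 5 of 6 squamous markers were higher in the esophagus and 8 of 8 columnar markers were higher in the stomach (limma, adjusted p under 0.05). The exception was Trp63, whose brightest probe was higher in the stomach by a log2 difference of -1.22 (esophagus minus stomach) while its other 3 probes were at background in the stomach and at least 49.6-fold to 299-fold higher in the esophagus. Between 45.5% and 51.1% of the spots that are not controls stood well above background on each array, with no saturated spot. Esophagus replicate 4 was alone on its slide, so the fit with the slide as a block equals the fit without that array. The number of called probes over the whole array was 6770 and dropped to 4091 without stomach replicate 1 and to 4152 without stomach replicate 2.

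Promoter sequence is shown for the members with a called or separated class I difference, and for the class II gene that stayed at background, because they carry the short elements through which MHC genes are known to be switched on. RefSeq promoters (assembly GRCm38.p6) were given for 6 of the 10 members, namely H2-K1, H2-D1, B2m, Tap1, Tapbp and H2-Aa. Each sequence runs 5′ to 3′ on the gene's strand from 200 bases before the start of the transcript through its first 10 bases, and capitals mark the motif matches. H2-K1 lies on the minus strand at chr17:34000324-34000533, H2-D1 on the plus strand at chr17:35262894-35263103, B2m on the plus strand at chr2:122147487-122147696 and H2-Aa on the minus strand at chr17:34287814-34288023.

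H2-K1: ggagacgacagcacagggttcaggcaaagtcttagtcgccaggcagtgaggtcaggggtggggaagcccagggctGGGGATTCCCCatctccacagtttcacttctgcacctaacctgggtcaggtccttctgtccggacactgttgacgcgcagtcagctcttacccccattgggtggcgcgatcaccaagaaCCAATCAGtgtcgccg

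H2-D1: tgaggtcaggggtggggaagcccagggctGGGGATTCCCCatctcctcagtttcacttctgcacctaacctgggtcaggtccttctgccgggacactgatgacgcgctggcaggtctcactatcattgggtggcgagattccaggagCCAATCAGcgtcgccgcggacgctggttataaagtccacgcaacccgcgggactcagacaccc

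B2m: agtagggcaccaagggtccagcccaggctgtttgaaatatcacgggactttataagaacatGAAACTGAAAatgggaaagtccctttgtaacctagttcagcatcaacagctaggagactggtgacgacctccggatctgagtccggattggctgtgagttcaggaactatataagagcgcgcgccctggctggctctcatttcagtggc

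H2-Aa: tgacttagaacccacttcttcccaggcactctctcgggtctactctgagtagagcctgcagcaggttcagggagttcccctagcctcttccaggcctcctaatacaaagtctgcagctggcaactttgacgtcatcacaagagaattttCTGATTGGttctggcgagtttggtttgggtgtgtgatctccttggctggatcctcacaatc

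Both heavy chain promoters held the kappa B site of the class I enhancer, the first stretch of capitals in each, which began 125 bases before the start in H2-K1 and 171 bases before it in H2-D1. This motif was present in 0.0304% of all 32851 promoters of the table, read on both strands. The Y box CTGATTGG, bound by the NF-Y complex, was found in H2-K1, H2-D1, Tap1 and H2-Aa and in 4.1% of all promoters. The promoters searched were longer than the stretches printed here, and the Tap1 match lay 222 bases before the start. The core of the interferon-stimulated response element, GAAA repeated after 2 spacer bases, was found in 1 member, B2m, 139 bases before the start, and in 3.44% of all promoters. Only this exact spelling was searched, so an absence of the element from the other members is not shown. The STAT motif TTCNNNGAA was found in none of the 6 members with a promoter and in 8.3% of all promoters. In H2-K1 a second annotated start lay 14 bases upstream of the one shown, and the kappa B and Y box matches were in its window too. These matches are letters in a window and say nothing about binding in these organoids.

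**Figure D1:**
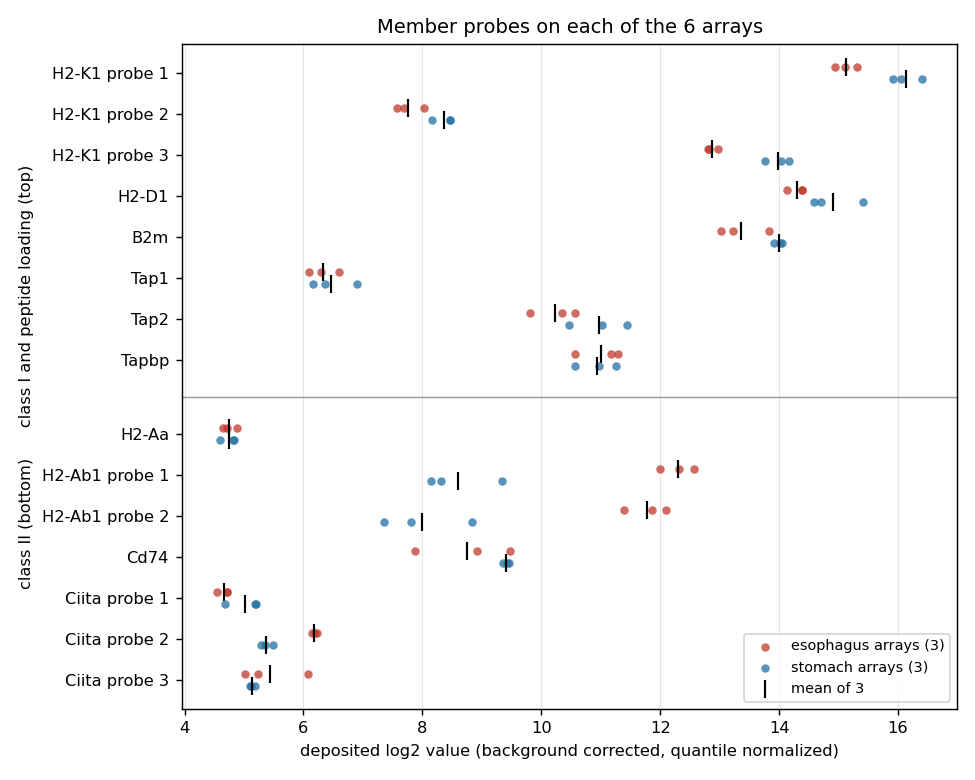
Deposited log2 value of each of the 15 member probes (rows) on the 3 esophagus arrays (red) and 3 stomach arrays (blue), with a black bar at the mean of 3. All 3 H2-K1 probes lie lower in the esophagus, both H2-Ab1 probes lie higher in the esophagus without overlap, and H2-Aa lies at the left, near background on all 6 arrays.

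H2-K1 transcripts were lower in the esophagus organoids. H2-K1, 1 of the classical heavy chains that bind peptide, was measured by 3 probes, and all 3 had every stomach array above every esophagus array. H2-D1, the other classical heavy chain, and B2m, the light chain, were separated in the same direction but did not pass the test. At adjusted p under 0.05 (limma, Benjamini-Hochberg over all probes), 2 of 8 class I and loading probes were called, both of H2-K1 and both lower in the esophagus. Over all probes the same rule called 12.2% in either direction and 6.22% as higher in the stomach. Among probes well above background on all 6 arrays, as these 8 were, it called 20.4% and 9.68%.

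H2-K1 probe 1 (NM_001001892, mm9 chr17:34133055-34133114, minus strand) is spotted 10 times on the array. It had log2 values of 16.05, 15.92 and 16.41 in stomach organoids of mice 1, 2 and 4 and of 14.94, 15.31 and 15.11 in esophagus organoids. The highest esophagus array lay 0.62 below the stomach array of the same mouse, mouse 2, and the groups did not overlap. The log2 difference was -1.01 (SE 0.18, 95% interval -1.43 to -0.58, limma adjusted p = 0.00994), 2.01-fold higher in the stomach.

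H2-K1 probe 3 (NM_001347346, mm9 chr17:34133984-34134043, minus strand) had log2 values of 13.77, 14.02 and 14.16 in the stomach and 12.80, 12.82 and 12.98 in the esophagus. This was the largest difference among class I probes at -1.12 (SE 0.16, 95% interval -1.49 to -0.75, limma adjusted p = 0.003). Aligned without gaps, 44 of its 60 bases match a probe of Gm11127, so signal from related class I genes cannot be told apart from it. H2-K1 probe 2 (AY496688, no position in the files) had log2 values of 8.15, 8.46 and 8.46 in the stomach and 7.58, 7.70 and 8.02 in the esophagus. Its difference of -0.59 (SE 0.18) missed the threshold (limma adjusted p = 0.0754), and reached it without esophagus replicate 4 (-0.72, limma adjusted p = 0.0452). In this probe 46 of 60 bases match a probe of LOC547349.

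The calls of H2-K1 held in each fit that left out 1 array, with limma adjusted p from 0.0213 to 0.042 for probe 1 and 0.00649 to 0.0198 for probe 3. Both calls were lost when the scanner's processed intensities were scaled to the 75th percentile instead of quantile normalized (limma adjusted p = 0.227 and 0.127). That scaling moved the median difference of all probes from 0.02 to 0.19 in log2, and relative to this shift H2-K1 differed by -0.87 and -1.04.

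H2-D1 (NM_010380, mm9 chr17:35403886-35403945, plus strand) had log2 values of 14.59, 14.71 and 15.42 in the stomach and 14.38, 14.39 and 14.13 in the esophagus. The stomach organoids of mouse 4, harvested 1 day earlier, were the highest array, and the nearest values of the tissues were 0.20 apart. The difference of -0.60 (SE 0.24, 95% interval -1.15 to -0.06) did not pass the test (limma adjusted p = 0.164) and was -0.35 without stomach replicate 4 (limma adjusted p = 0.274).

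B2m (NM_009735, mm9 chr2:121978401-121978460, plus strand) encodes the light chain that pairs with class I heavy chains. Its log2 values were 14.06, 13.92 and 14.01 in the stomach and 13.83, 13.03 and 13.23 in the esophagus. Stomach arrays lay within an SD of 0.07, whereas esophagus arrays had an SD of 0.42 and the esophagus organoids of mouse 1 came close to the stomach. The difference of -0.63 (SE 0.22, limma adjusted p = 0.12) passed at adjusted p under 0.05 when esophagus replicate 1 was left out (-0.87, limma adjusted p = 0.0164) and in no other alternative fit of the probe.

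The TAP transporter and its partner gave less separated values. Tap1 (NM_013683, mm9 chr17:34330854-34330913, plus strand), which with Tap2 forms the peptide pump, had log2 values of 6.15, 6.89 and 6.36 in the stomach and 6.60, 6.29 and 6.10 in the esophagus. The groups overlapped, and the difference of -0.14 (95% interval -0.68 to 0.40, limma adjusted p = 0.795) turned to 0.07 without stomach replicate 2. Tap2 (NM_011530, mm9 chr17:34353116-34353175, plus strand) had log2 values of 11.03, 11.45 and 10.46 in the stomach and 10.34, 10.56 and 9.81 in the esophagus. Within each mouse the stomach array was higher, by 0.65 to 0.88, although 1 esophagus array lay above the lowest stomach array. Its difference of -0.74 (SE 0.29) gave a limma adjusted p of 0.172, and of 0.039 with the mouse as a replicate block.

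Tapbp (NM_001025313, mm9 chr17:34065963-34066022, plus strand) encodes tapasin, which holds empty class I molecules at the transporter. Its log2 values were 10.98, 11.26 and 10.57 in the stomach and 10.56, 11.18 and 11.28 in the esophagus, and the groups overlapped. The difference was 0.07 (SE 0.25, 95% interval -0.52 to 0.66, limma adjusted p = 0.913), and it turned negative without stomach replicate 4, esophagus replicate 2 or esophagus replicate 4 (-0.11, -0.02 and -0.07).

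Across the 8 class I and loading probes the median difference was -0.62, beside 0.02 over all probes, with a range from -1.12 to 0.07. Stomach arrays all lay above esophagus arrays in 5 of them, and this pattern was found in 13.4% of all probes with 6 values, and groups without overlap in either direction in 28.6%. The median was -0.50, -0.69 and -0.71 in mice 1, 2 and 4. By the thresholds named in the methods, taken as an unadjusted p under 0.05 and a 1.5-fold change, 6 of 8 class I probes and 18.1% of all probes passed. Medians over few probes of related genes are a description and were not tested. In bulk RNA a smaller share of cells with high class I levels and less class I RNA per cell cannot be told apart.

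**Figure D2:**
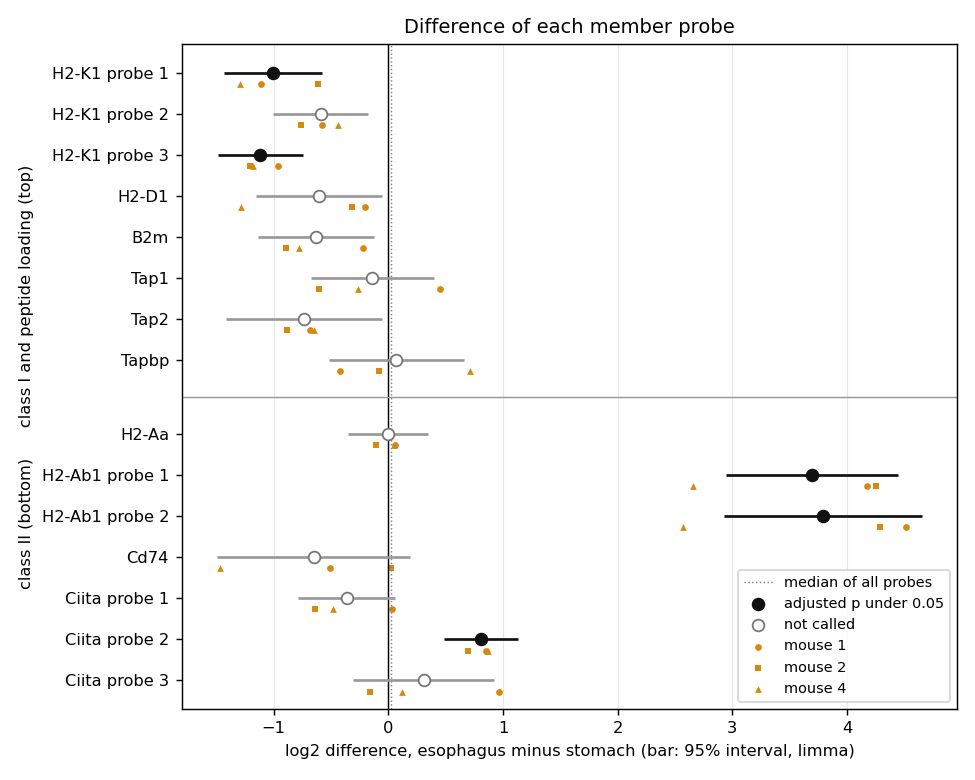
Log2 difference (esophagus minus stomach) of each member probe with its 95% interval from limma, filled where adjusted p was under 0.05, and the differences within mice 1, 2 and 4 as small symbols below. Both H2-Ab1 probes lie far above 0 in all 3 mice, lowest in mouse 4, and 7 of 8 class I probes lie below 0.

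Class II transcripts did not move as a group. H2-Ab1, the beta chain of the I-A molecule, was 12.9-fold and 13.8-fold higher in esophagus organoids by its 2 probes, and 1 of 3 Ciita probes was higher there. The alpha chain partner H2-Aa stayed at background on all 6 arrays, and Cd74, the invariant chain, overlapped between the tissues. At adjusted p under 0.05 (limma), 3 of 7 class II probes were called, all higher in the esophagus, beside 5.94% of all probes called in this direction. Among probes well above background on all 6 arrays, as these 3 were, 20.4% were called in either direction. Of the 3, 2 are the overlapping H2-Ab1 probes. These 3 calls held in all 14 alternative settings that fitted single probes.

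H2-Ab1 probe 1 (NM_207105, mm9 chr17:34406296-34406355, plus strand) had log2 values of 12.32, 12.57 and 12.00 in the esophagus and 8.15, 8.32 and 9.35 in the stomach. The lowest esophagus array was 2.66 above the highest stomach array, both from mouse 4, and each tissue was well above background on all 3 arrays. The difference was 3.69 (SE 0.32, 95% interval 2.94 to 4.44, limma adjusted p = 0.000213), 12.9-fold higher in the esophagus. H2-Ab1 probe 2, which lies 9 bases further along, had log2 values of 11.86, 12.10 and 11.40 in the esophagus and 7.35, 7.81 and 8.83 in the stomach. Its difference of 3.79 (SE 0.37, limma adjusted p = 0.000414) is not a separate measurement, since 50 of 60 bases match when the probes are aligned.

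The overlap can be read from the first 30 bases of both probes, printed 5′ to 3′ as on the array beside those of the H2-Aa probe. The second H2-Ab1 probe begins inside the first.

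H2-Ab1 probe 1: tagtaaaccaatgtatgcttatccccacct

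H2-Ab1 probe 2: aatgtatgcttatccccacctagattacaa

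H2-Aa: tttggccaattggcaagctttgacccccaa

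The stomach organoids of mouse 4 had the highest H2-Ab1 values of their group in both probes. Within mice the probe 1 difference was 4.17 in mouse 1, 4.25 in mouse 2 and 2.66 in mouse 4, and over the alternative settings it ran from 3.47 to 4.06.

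H2-Aa (NM_010378, mm9 chr17:34421285-34421344, minus strand) encodes the alpha chain with which the I-A beta chain pairs. Its single probe had log2 values of 4.65, 4.71 and 4.88 in the esophagus and 4.59, 4.82 and 4.83 in the stomach, none well above background. No fold is given, because both tissues had only an upper bound. The interval of the difference was -0.35 to 0.35 (limma adjusted p = 0.998). It describes values at background only, so it cannot be set against the rise in H2-Ab1. Whether the probe can detect the transcript was not tested, since no sample here was known to express it.

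Cd74 (NM_001042605, mm9 chr18:60972075-60972132, plus strand), the invariant chain that guides class II molecules to endosomes, had log2 values of 9.42, 9.46 and 9.35 in the stomach and 8.91, 9.48 and 7.88 in the esophagus. The stomach arrays lay within 0.11 of each other, whereas the esophagus arrays spanned 1.60, with mouse 4 the lowest and mouse 2 above the stomach range. The difference of -0.65 (SE 0.36, 95% interval -1.50 to 0.19, limma adjusted p = 0.344) was -0.21 without esophagus replicate 4.

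Ciita, the coactivator that class II promoters need, was measured by 3 probes that disagreed. Probe 2 (ENSMUST00000230392.1, mm9 chr16:10491091-10491150, plus strand) had log2 values of 6.14, 6.19 and 6.22 in the esophagus and 5.28, 5.49 and 5.36 in the stomach, well above background on all 6 arrays. The groups did not overlap, and the difference was 0.80 (SE 0.14, 95% interval 0.48 to 1.13, limma adjusted p = 0.00758), 1.75-fold higher in the esophagus. Its size depended on the processing, with 0.47 at a normexp offset of 50 and 1.29 under 75th percentile scaling, and it passed the test in both. Probe 3 (NM_001302619, mm9 chr16:10526568-10526627, plus strand) was well above background only in the esophagus organoids of mouse 1, at 6.07, and its other 5 values lay between 5.02 and 5.24. Probe 1 (mm9 chr16:10492271-10492327, same transcript as probe 2) was well above background on 1 stomach array only, with values from 4.55 to 5.19. Probes 1 and 3 were not called (differences of -0.36 and 0.31, limma adjusted p = 0.284 and 0.571), and without esophagus replicate 1 the difference of probe 3 was -0.01. The rise in Ciita thus rests on 1 probe at low signal.

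**Figure D3:**
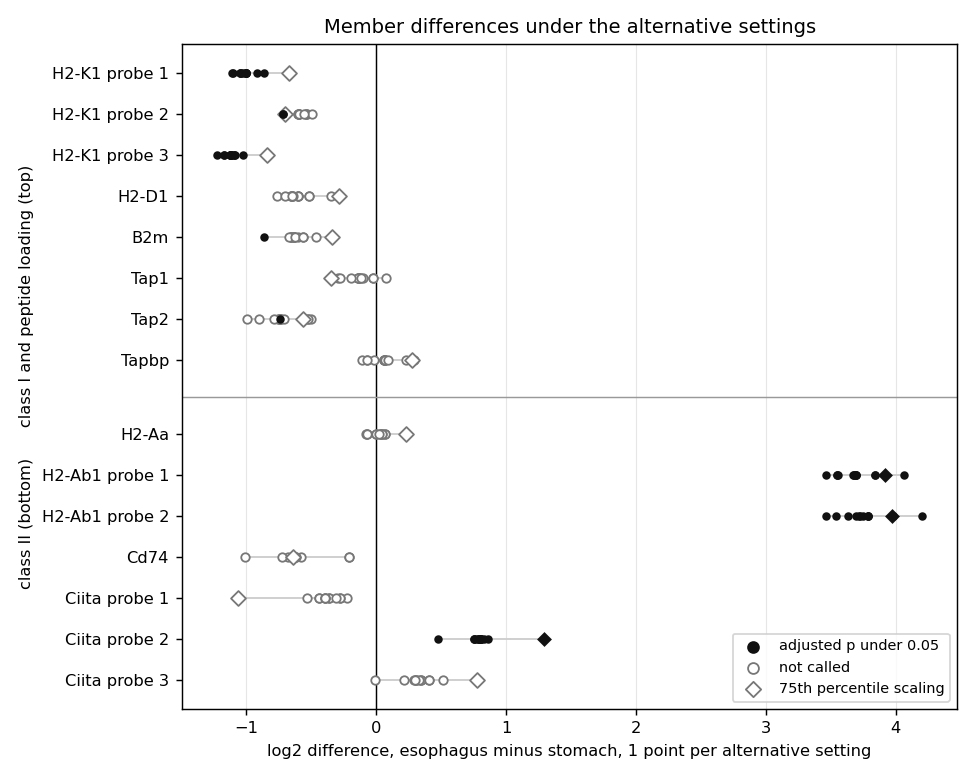
Log2 difference (esophagus minus stomach) of each member probe under up to 14 alternative settings, 1 point each, filled where limma adjusted p was under 0.05, with diamonds for 75th percentile scaling. H2-Ab1 stays between 3.46 and 4.20 and filled throughout, H2-K1 probes 1 and 3 are open only at the diamond, and Tap1, Tapbp, H2-Aa and Ciita probe 3 cross 0.

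Set side by side, the classes gave a median difference of -0.62 (class I and loading, 8 probes) and 0.31 (class II, 7 probes). The class II median is the value of Ciita probe 3, which was well above background on 1 array only. The class II median lay above the class I median by 0.92, and by 1.35, 0.71 and 0.83 within mice 1, 2 and 4. Of the class II probes, 3 were not well above background on all arrays of either tissue, and without such probes the distance was 2.87, or 1.42 with H2-Ab1 counted by 1 of its overlapping probes. Class II thus held the largest difference of the 10 genes, in H2-Ab1, together with a gene at background, whereas class I held smaller differences of 1 sign in 7 of 8 probes. The distance between the classes was given as a description, with no test.

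Several other class I heavy chains, mainly of the Q region, were lower in the esophagus as well. By the brightest probe of each of 24 genes on the array, 9 were higher in stomach organoids, 1 was higher in esophagus organoids and 14 were not called (limma, adjusted p under 0.05). Differences were negative in 17 and positive in 7, with a median of -0.66. By the same rule, 14.9% of all gene names were called, 7.7% toward the stomach and 7.15% toward the esophagus, and the counts of each list below stand beside these shares. H2-Q5 had the largest difference, with 8.04 ± 0.39 (SD, n = 3) in the stomach and 5.86 ± 0.14 (SD, n = 3) in the esophagus (-2.18, limma adjusted p = 0.000436), and its probe is assigned to a noncoding transcript (NR_051981). The H2-Q5 difference ran from -2.98 to -1.64 over the alternative settings. H2-Q1 was detected above background in no esophagus sample, which makes it at least 3.29-fold higher in stomach organoids on the deposited scale (limma adjusted p = 0.000325). Its measured difference ran from -3.65 under 75th percentile scaling to -1.15 with a normexp offset of 50, so this bound belongs to that scale alone. H2-M3, which presents formylated peptides, had values of 9.20 ± 0.05 (SD, n = 3) in the stomach and 7.75 ± 0.56 (SD, n = 3) in the esophagus (-1.45, limma adjusted p = 0.0103; adjusted p = 0.0519 without stomach replicate 1). The 1 gene higher in the esophagus was Cd1d1 (0.96, limma adjusted p = 0.0489), which presents lipids and was named after its value was seen. That call was lost in 7 of 14 alternative settings (adjusted p up to 0.167), among them a normexp offset of 50, and the second Cd1d1 probe was at background. The Cd1d1 difference ran from 0.64 to 2.17 over these 14 settings. Probes in this list are not independent. Those of H2-Q6 and H2-Q8 share 54 of 60 bases, so their signals cannot be told apart. The count of 10 was 4 under 75th percentile scaling, 3 of them higher in the stomach, and 6 without stomach replicate 1.

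The H2-Q10 probes disagreed. The brighter was not called (-0.88, limma adjusted p = 0.0543), whereas the other had log2 values of 9.88, 10.57 and 10.97 in the stomach and 5.23, 4.80 and 4.85 in the esophagus, where it was not well above background, which makes it at least 42.3-fold higher in the stomach (limma adjusted p = 1.05e-05). H2-Q10 encodes a secreted class I molecule, and this probe shares 39 of 60 bases with a probe of H2-T3. It was singled out after its values were seen.

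Of 10 peptide loading partners and peptidases, 2 were called toward the stomach, beside 7.7% of all gene names, and none toward the esophagus, with a median difference of -0.35. Uggt1, which checks the folding of glycoproteins, had values of 12.64 ± 0.09 (SD, n = 3) in the stomach and 11.71 ± 0.32 (SD, n = 3) in the esophagus (-0.93, limma adjusted p = 0.0163). Its call was lost without stomach replicate 1 or 2 and under 75th percentile scaling (adjusted p = 0.0656, 0.0594 and 0.324). Tapbpl, a tapasin relative that edits peptides, differed by -0.51 (limma adjusted p = 0.0464), which was lost in 10 of 14 alternative settings (adjusted p = 0.0598 to 0.66), among them every fit with 1 array left out and the mouse as a replicate block (adjusted p = 0.109). Its second probe pointed the other way (0.53, limma adjusted p = 0.221). The endoplasmic reticulum chaperones Calr, Canx, Pdia3 and Hspa5 were not called.

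Among 4 immunoproteasome genes, which cut peptides suited to class I, 1 was called, toward the stomach as were 7.7% of all gene names. Psmb8 had log2 values of 7.32, 7.92 and 7.09 in the stomach and 6.25, 6.57 and 6.26 in the esophagus (-1.08, SE 0.23, limma adjusted p = 0.0212). The call was lost without stomach replicate 1 or 2 or esophagus replicate 1 or 4 (adjusted p = 0.0679, 0.0503, 0.0558 and 0.0554) and with a normexp offset of 50 (adjusted p = 0.0566). All 4 genes had negative differences, from -1.08 to -0.29, and Psmb9, Psmb10 and Psme1 were not called. The list's median of -0.51 lay near that of the class I members.

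**Figure D4:**
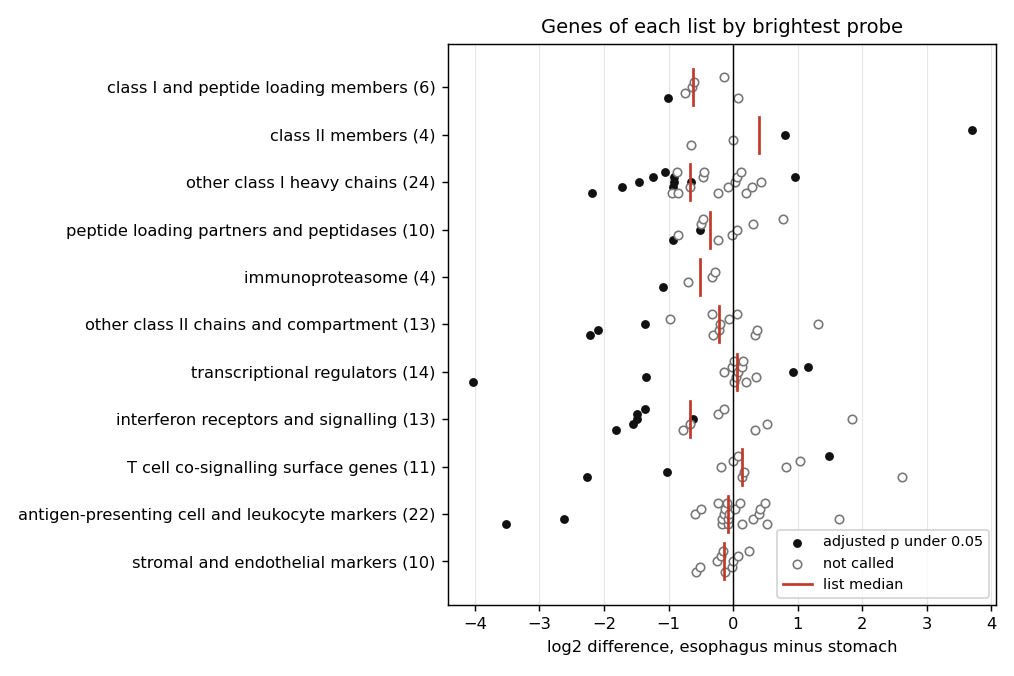
Log2 difference (esophagus minus stomach) of each gene by its brightest probe, 1 row per list with the number of genes on the array, filled where limma adjusted p was under 0.05, and a red bar at the list median. Called genes of the class I heavy chain, loading, immunoproteasome and interferon lists lie left of 0 except 1, and H2-Ab1 lies far to the right of the other class II and class II compartment genes.

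Among the other class II chains and compartment genes, none was called toward the esophagus, and H2-Eb1 came nearest to the threshold in that direction. Of 13 genes, 3 were called, all higher in the stomach (7.7% of all gene names), and the median difference was -0.22. Under 75th percentile scaling H2-Eb1 was called as well, toward the esophagus. March1, a ubiquitin ligase that removes class II from the surface, had values of 11.28 ± 0.72 (SD, n = 3) in the stomach and 9.06 ± 0.33 (SD, n = 3) in the esophagus (-2.22, limma adjusted p = 0.00522). This was 1 of its 2 probes, and the other stayed at background throughout. Ifi30, a lysosomal thiol reductase that opens disulfide bonds for class II loading, was 4.26-fold higher in the stomach (-2.09, SE 0.26, limma adjusted p = 0.00147). Lgmn, an asparagine endopeptidase of the same compartment, was 2.56-fold higher there (-1.36, SE 0.22, limma adjusted p = 0.006).

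H2-Eb1, the beta chain of I-E, had log2 values of 7.73, 6.07 and 6.78 in the esophagus and 5.36, 5.52 and 5.77 in the stomach. All esophagus arrays lay above all stomach arrays, and the difference of 1.31 (SE 0.38) missed the threshold (limma adjusted p = 0.068). It passed without esophagus replicate 2 (1.70, limma adjusted p = 0.0171), under 75th percentile scaling, with a filter on dim probes and with trended, robust variances (adjusted p = 0.0349, 0.0425 and 0.041). It did not pass in the other 10 of 14 settings (adjusted p up to 0.219), and its difference was 0.87 without esophagus replicate 1. The peptide exchange chains H2-DMa and H2-DMb1 had differences of 0.38 and -0.98 (limma adjusted p = 0.196 and 0.123). In H2-DMa all esophagus arrays lay above all stomach arrays, and in H2-DMb1 all stomach arrays lay above all esophagus arrays. H2-DMb1 passed without esophagus replicate 1 (adjusted p = 0.00967), whose value of 7.42 lay close to the stomach arrays at 7.59 to 7.69. H2-Ea-ps, H2-Oa, H2-DMb2 and Ctss stayed at background on all 6 arrays.

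Of 14 transcriptional regulators, 2 were higher in each tissue, Irf8 and Rfxank in the stomach and Creb1 and Nfkb1 in the esophagus, beside 14.9% of all gene names called, and the median difference was 0.06. The call of Nfkb1 was lost under 75th percentile scaling (adjusted p = 0.0655). Irf8, an interferon regulatory factor known from myeloid and B cells, was the largest, with log2 values of 9.67, 10.02 and 9.92 in the stomach and 5.56, 6.20 and 5.78 in the esophagus. The difference was -4.02 (SE 0.20, limma adjusted p = 9.68e-06), and 2 of 3 esophagus arrays were well above background. Over the alternative settings the difference ran from -4.98 to -3.34. Rfxank, a subunit of the RFX complex that binds class I and class II promoters, was 2.56-fold higher in the stomach (-1.35, limma adjusted p = 0.00431). The other RFX subunits differed by 0.14 (Rfx5, adjusted p = 0.746) and 0.01 (Rfxap, adjusted p = 0.986). Creb1, which binds the X2 box of these promoters, was 2.24-fold higher in the esophagus (1.16, limma adjusted p = 0.0213), a call lost without stomach replicate 1 or 2 or esophagus replicate 2 or 4 (adjusted p = 0.0939, 0.0952, 0.0731 and 0.0512; the last also with the slide as a block). Nlrc5, the class I transactivator, stayed at background on all 6 arrays. Irf1 had 11.84 ± 0.30 (SD, n = 3) in the stomach and 11.85 ± 0.28 (SD, n = 3) in the esophagus, a difference of 0.01 with a range from -0.17 to 0.27 over the alternative settings.

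Interferon receptors were lower in the esophagus in several chains. Of 13 genes of interferon reception and signalling, 6 were called toward the stomach, beside 7.7% of all gene names, and none toward the esophagus, with a median difference of -0.67. The 6 were Ifnlr1, Il10rb, Ifngr1, Ifngr2, Jak2 and Irf9. Ifnlr1, the specific chain of the interferon-lambda receptor, had log2 values of 11.67, 11.28 and 11.28 in the stomach and 9.61, 9.56 and 9.63 in the esophagus (-1.81, SE 0.16, limma adjusted p = 0.000227). Il10rb, the chain it pairs with, was 2.81-fold higher in the stomach (-1.49, SE 0.17, limma adjusted p = 0.000822). Ifngr1, the ligand-binding chain of the interferon-gamma receptor, differed by -1.55 (SE 0.33, limma adjusted p = 0.0201), a call lost without stomach replicate 1, 2 or 4 or esophagus replicate 2 or 4 (adjusted p from 0.05 to 0.0734), with the slide as a block (adjusted p = 0.0513) and under 75th percentile scaling (adjusted p = 0.0806). The type I receptor chains Ifnar1 and Ifnar2 were not called. The largest difference of the list was that of Socs1, an inhibitor of this signalling, which had log2 values of 8.31, 9.25 and 7.28 in the esophagus and 6.06, 5.94 and 7.32 in the stomach. The groups overlapped in mouse 4 and the difference of 1.84 was not called (limma adjusted p = 0.0685), but it passed with a filter on dim probes (adjusted p = 0.0395) and without stomach replicate 4 or esophagus replicate 4 (adjusted p = 0.0307 and 0.0191). Jak1 was called toward the esophagus with a normexp offset of 50 (0.55, adjusted p = 0.0357). Socs1 and Jak1 were singled out after their values were seen. The count of 6 was 3 under 75th percentile scaling, without stomach replicate 1, without stomach replicate 2 and without esophagus replicate 2.

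Most genes of T cell co-signalling were not called. Of 11, 1 was called toward the esophagus and 2 toward the stomach, 1 of them under 75th percentile scaling, beside 7.15% and 7.7% of all gene names, and the median difference was 0.13. Icam1, an adhesion molecule for T cells, was 2.80-fold higher in the esophagus (1.49, SE 0.23, limma adjusted p = 0.00412). Vtcn1, an inhibitory ligand, stayed at background in the esophagus, so that stomach organoids exceeded it at least 4.01-fold on the deposited scale (limma adjusted p = 2.29e-05). Its measured difference ran from -4.78 under 75th percentile scaling to -1.37 with a normexp offset of 50. Pvr, a nectin-like receptor, differed by -1.02 (limma adjusted p = 0.0267), a call lost in 7 of 14 alternative settings (adjusted p = 0.0501 to 0.119). These were 75th percentile scaling, the slide as a block, the mouse as a replicate block (adjusted p = 0.0707) and the fits without stomach replicate 1 or 2 or esophagus replicate 1 or 4. The Cd80 probes disagreed, with the brighter not called (limma adjusted p = 0.997) and the other at background in the stomach and at least 3.11-fold higher in the esophagus (limma adjusted p = 0.0118). Cd274, which encodes PD-L1, had log2 values of 10.65, 7.12 and 5.81 in the esophagus and 5.24, 5.12 and 5.37 in the stomach, where it was not well above background. All esophagus arrays were higher, but they spanned 4.84, and the gene was not called (mean at least 6.13-fold higher, limma adjusted p = 0.179) unless esophagus replicate 4 was left out (adjusted p = 0.0416). The mean rests on the esophagus organoids of mouse 1, without which the measured difference dropped from 2.62 to 1.22 (adjusted p = 0.0812). The highest Cd274 difference among the alternative settings was 4.03. Cd80 and Cd274 were singled out after their values were seen.

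Markers of antigen-presenting cells and leukocytes were examined beside the class II values. Of 22 on the array, none was higher in the esophagus and 2 were higher in the stomach (limma, adjusted p under 0.05), beside 7.7% of all gene names called in that direction. The 2 were Cd14 (-3.51, adjusted p = 0.000273) and Itgam (-2.62, adjusted p = 0.000662). For Itgam this was 1 of 3 probes, and the other 2 were not well above background. In the probes used, 11 of the 22 stayed at background on all 6 arrays, among them Ptprc, Itgax, Adgre1, Tyrobp, Laptm5, Clec9a, Xcr1, Cd207, Cd209a and Ms4a1. In the esophagus 6 of the 22 were well above background on all 3 arrays and in the stomach 9, and those in both were Cd14, Itgam, Cd68, Csf1r, Cd3e and Coro1a. Csf1r, a receptor of macrophages, had log2 values of 7.78 to 8.03 in the esophagus and 7.97 to 8.35 in the stomach. Cd3e, a chain of the T cell receptor complex, had 7.23 to 7.56 and 7.35 to 8.34. Coro1a, an actin regulator of leukocytes, had 5.96 to 6.63 and 5.52 to 6.70, and all 3 genes overlapped between the tissues. Ptprc, which encodes CD45 of nearly all leukocytes, had log2 values from 4.40 to 4.91 over all 6 arrays. The mean log2 value over the list was 6.06 to 6.15 in esophagus organoids and 6.26 to 6.35 in stomach organoids. It turned on 3 genes: without Cd14 and Itgam the ranges were 5.76 to 5.80 and 5.63 to 5.79, and without Cd68 as well they were 5.33 to 5.44 and 5.34 to 5.44. The 3 were left out for the size of their differences, so these ranges are a description. Under 75th percentile scaling the list's median difference was 0.15, below the 0.19 of all probes, and 3 genes were called toward the stomach. Over all probes this scaling called 10.9% in either direction, and 3375 of these 6043 probes were higher in the stomach. Beside Irf8, whose difference had the same sign as those of Cd14 and Itgam, the part of such cells was not tested. Of 10 stromal and endothelial markers none was called by limma. An unadjusted p under 0.05 was found for 2, Col1a2 and Cdh5, both lower in the esophagus, and 2 were called with trended and robust variances. Shares of all genes under these rules are not given here. Under 75th percentile scaling 1 was called toward the stomach. Of the 6043 probes called there in either direction (10.9% of all probes), 3375 were higher in the stomach. Cd68, a lysosomal protein of macrophages, had log2 values of 14.78, 12.95 and 11.80 in the esophagus and 11.04, 11.22 and 12.36 in the stomach and was not called (limma adjusted p = 0.211).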

How the data were processed

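Single-color Agilent mouse arrays of 3 esophagus and 3 stomach organoid samples were used. The authors read them with Agilent Feature Extraction (version 11.5.1.1), and the deposited scanner files hold the intensity, background and flags of 62976 spots. The authors' deposited series table holds log2 values, background corrected and quantile normalized. Its rows match spots by feature number, its column medians were 5.24 to 5.25, and normexp with an offset of 15 on median intensities followed by quantile normalization gave its values within 0.0726. Its 2029 empty cells are outlier spots.

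Spots of a probe were averaged, and 55681 non-control probes were compared with limma (version 3.58.1, R 4.3.3; lmFit and eBayes over all 6 arrays, no block), with p-values adjusted by Benjamini-Hochberg across the array. Differences are esophagus minus stomach. Probe positions are those of the files (mm9), and promoters are from RefSeq (GRCm38.p6). A probe counts as well above background where at least 50% of its spots carry the scanner's flag. Where it was not on any array of 1 tissue, the fold is a lower bound against the higher of its own value and the lowest log2 value that any probe above background reached on that array.

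Members and lists were chosen with earlier results of these data known. Named genes were all member probes, Nlrc5, Rfx5, Irf1, H2-DMa, H2-DMb1 and H2-Eb1, and, per list, the 3 called genes with the largest difference by brightest probe and a signal well above background throughout at least 1 tissue. Mouse numbers pair the tissues by animal per the labels. Deviations of same-mouse arrays from their tissue means correlated with r = 0.025, 0.0119 and -0.00787, against -0.0726 to 0.0405 between mice, and the block was an alternative. Other alternatives were normexp on scanner mean intensities (offset 16 or 50, outlier spots missing or kept), 75th percentile scaling, a filter on dim probes, trended and robust variances, the slide, the thresholds of the methods, the mean of all probes of a gene and each array left out. H2-L, H2-Q9, H2-T22, H2-Ea, Psme2, Il28ra and Emr1 were not found under these names. Some listed genes are not reported here by name.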

Additional observations from a re-analysis of the deposited data

How the results depend on the processing

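With 3 arrays a tissue, precision is limited by their number and, for H2-Aa, Ciita and Nlrc5, by signal near background. The 3 class II calls were 3 in every setting that fitted single probes. The class I count of 2 was 0 under 75th percentile scaling, 6 by the thresholds of the methods and 2 to 3 with 1 array left out. With the mouse as a replicate block it was 3, class II kept a count of 3 and 6153 probes were called in all; beside Tap2, Tapbpl and Pvr, given above, the block changed no call of a named gene. The count over all probes was 4091 to 7415 with 1 array left out.

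The class II median exceeded the class I median by 2.87 with dim probes filtered and by 0.76 to 1.12 with 1 array left out. The count of other class I heavy chains was 4 under 75th percentile scaling and 6 to 9 with 1 array left out. It rose with normexp at an offset of 16, to 12 toward the stomach and 1 toward the esophagus, with outlier spots missing or kept. Loading partners gave 0 under 75th percentile scaling, 1 with the slide as a block and 0 to 2 with 1 array left out. With normexp at an offset of 16 or 50 they gave 3, all toward the stomach. The immunoproteasome gave 0 with an offset of 50, 0 with the slide as a block and 0 to 2 with 1 array left out. The interferon list gave 3 under 75th percentile scaling and 3 to 6 with 1 array left out. Over all probes, 12.2% were called in the main fit and 10.9% under 75th percentile scaling. With normexp at an offset of 16 and of 50 these shares were 12.2% and 10.7%.

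Differences near 0 changed sign. Tapbp gave -0.068 with the slide as a block. H2-Aa gave 0.065, 0.031 and 0.065 with normexp at an offset of 16, at 50 and with outlier spots kept, and 0.23 under 75th percentile scaling; Irf1 gave -0.027, -0.026 and -0.023 in the first 3. With 1 array left out, Tap1 ran from -0.30 to 0.072, Tapbp from -0.11 to 0.29, H2-Aa from -0.078 to 0.047, Ciita probe 3 from -0.0064 to 0.52 and Irf1 from -0.17 to 0.10. The cause was not tested. With the dim filter, H2-Aa, Ciita probes 1 and 3 and Nlrc5 had no value.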
